A study of Mus musculus with 6 samples.

Results

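The genes described here were the inhibitors of DNA binding *Id1*, *Id2*, *Id3* and *Id4*, the inhibitory Smads *Smad6* and *Smad7*, and the Hes and Hey repressors *Hes1*, *Hes5*, *Hey1* and *Hey2*, which are known targets of bone morphogenetic protein (BMP) or Notch signaling. They are 10 of the 46078 genes in the deposited table, found by matching each symbol to its Ensembl identifier in GENCODE M21, and all 10 were among the 17605 genes tested. The group was chosen by a measured value, since *Id3* is lower in the 3 *Shank3* transgenic (TG) mice than in the 3 wild-type (WT) mice. The difference in *Id3* is therefore given as a description, without a test, and the question for the other 9 genes is whether they differ between the genotypes too. The RNA was taken from the whole dissected striatum of 12-week-old male mice on a C57BL/6J background, with 1 library per mouse. The TG mice carry an EGFP-*Shank3* transgene, which overexpresses the postsynaptic scaffold protein Shank3 fused to a fluorescent tag, and the WT mice do not. The promoter that drives the transgene is not given in the sources used here.

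BMPs bind type I and type II receptor kinases, which phosphorylate Smad1, Smad5 and Smad9. These join Smad4, enter the nucleus and activate genes such as *Id1*, *Id3*, *Smad6* and *Smad7*, the last pair of which feed back to restrain the receptors. Id proteins have a helix-loop-helix but no basic region that contacts DNA, so they bind E proteins and keep these from pairing with neurogenic factors. Notch receptors are cleaved after they bind a ligand of the Delta or Jagged type on a neighboring cell, and the freed intracellular part acts with RBPJ to activate *Hes* and *Hey* genes, whose proteins repress transcription with Groucho co-repressors. In the brain, both pathways are best known for holding neural stem cells in reserve, for the making of astrocytes and for the growth and upkeep of blood vessels.

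The Id genes are close paralogs, and the stretch in which they are most alike, the coding sequence of the helix-loop-helix, is shown to let their differences be seen. Each sequence is 90 bases of the coding exon of GENCODE M21 on the mouse genome GRCm38, written 5′ to 3′ on the strand of the gene, and capitals mark the 48 bases that are the same in all 4 genes.
Id1, chr2:152736518-152736607, plus strand: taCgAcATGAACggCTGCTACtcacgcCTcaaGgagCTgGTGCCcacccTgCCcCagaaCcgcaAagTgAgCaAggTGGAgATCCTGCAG
Id2, chr12:25095813-25095902, minus strand: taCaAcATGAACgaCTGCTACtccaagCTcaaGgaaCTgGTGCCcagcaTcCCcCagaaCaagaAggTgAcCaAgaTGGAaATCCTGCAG
Id3, chr4:136144002-136144091, plus strand: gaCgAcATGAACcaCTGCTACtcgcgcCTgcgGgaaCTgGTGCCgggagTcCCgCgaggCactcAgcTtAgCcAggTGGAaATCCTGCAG
Id4, chr13:48261693-48261782, plus strand: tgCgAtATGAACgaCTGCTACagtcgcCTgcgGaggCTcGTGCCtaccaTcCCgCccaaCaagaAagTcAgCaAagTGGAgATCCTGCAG
In this stretch *Id1* has 62 bases in common with *Id3*, *Id2* has 63 and *Id4* has 61. The longest run of bases shared by any pair of the 10 genes over their transcripts was 19, between *Id2* and *Id3*, followed by 18 between *Id2* and *Id4*.

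The start regions were read for the letters bound by the factors of the pathways, in RefSeq windows of GRCm38.p6 from 250 bases before to 50 after the start. Windows were at hand for 6 of the 10 genes, *Id2*, *Id3*, *Id4*, *Smad6*, *Hes5* and *Hey2*, and the others are *Id1*, *Smad7*, *Hes1* and *Hey1*. The motifs were TGGGAA on either strand, the core of the RBPJ site, the Smad palindrome GTCTAGAC and the GC-rich BMP element GGCGCC, the last pair of which read the same on both strands, and no matches of different motifs overlapped in these windows. The *Hes5* and *Smad6* windows are shown since they hold the Notch-type and Smad-type letters. In *Hes5* the capitals mark the RBPJ core, which begins 226 and 82 bases before the start, and in *Smad6* they mark the Smad palindrome, which begins 4 bases before it.
Hes5, chr4:154960673-154960922, plus strand: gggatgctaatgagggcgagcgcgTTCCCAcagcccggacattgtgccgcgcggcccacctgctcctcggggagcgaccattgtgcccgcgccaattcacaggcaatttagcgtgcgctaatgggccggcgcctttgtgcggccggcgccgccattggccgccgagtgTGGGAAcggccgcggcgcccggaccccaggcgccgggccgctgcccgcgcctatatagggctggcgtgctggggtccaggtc
Smad6, chr9:64022045-64022074, minus strand: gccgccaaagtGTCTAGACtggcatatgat
The RBPJ core was also present in *Hey2*, 207 and 3 bases before the start, and in *Id4*, 245 bases before it. The GC-rich element began 123, 106, 69 and 54 bases before the start of *Hes5*, 231 before that of *Id2* and 148 before that of *Id4*, and it lay 39 bases after that of *Hey2*. None of these letters occurred in the *Id3* window, and sequence farther from the start was not read. Of 32851 windows, 25.56% held the RBPJ core, 11.87% the GC-rich element and 0.21% the Smad palindrome, so only the palindrome is rare. A match is a description of the letters and not of binding.

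Recovered gene totals were 27689589 to 36647626 reads per library. *Shank3* itself had 29891, 28309 and 26044 normalized counts in TG replicates 1, 2 and 3 and 13807, 12918 and 13865 in WT replicates 1, 2 and 3, a log2 fold change of 1.05 with a standard error of 0.06 (adjusted *P* = 7.04e-05, limma). In the limma fit used here it was the only gene called at an adjusted *P* under 0.05, which is 0.00568% of the genes tested. The study reports further genes called by its own DESeq2 procedure. The striatal neuron markers *Ppp1r1b* (21063 to 28763 normalized counts) and *Penk* (19741 to 28237) were abundant in every library. So was *Slc17a7*, a glutamate transporter of cortical excitatory neurons (20237 to 29848). TG replicate 1 stood apart in markers of the choroid plexus, which summed to 15349.6 normalized counts there, 1571 in TG replicate 2, and 321 to 672 in the other 4 libraries. That library also had the lowest sum of spiny projection neuron markers, at 135384 against 158982 to 188275 in the others. In bulk tissue, fewer cells of a type and less RNA per cell cannot be told apart.

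Levels were compared between genes only per kilobase (kb) of exon, as normalized read counts per kb in the WT mice. *Id2* was the most abundant, at 995 ± 85.2 (SD, n = 3), followed by *Id4* at 615 ± 41.5, *Hey1* at 560.1 ± 12.1 and *Id3* at 355 ± 13.4. *Id1* had 263 ± 47.3, *Smad7* 225 ± 14.7, *Hes1* 138 ± 16.2 and *Hes5* 104 ± 31.4. *Hey2* at 27.4 ± 2.75 and *Smad6* at 15.0 ± 0.737 were the lowest. The WT values of neighbors in this order overlapped for *Id1* and *Smad7* and for *Hes1* and *Hes5*, and for no other neighbors. Among the Id genes *Id2* was the highest and *Id1* the lowest, *Smad7* exceeded *Smad6*, *Hey1* exceeded *Hey2*, and *Hes1* and *Hes5* did not differ beyond their spread. In the TG mice *Id3*, at 278 ± 13.4 per kb, still lay between *Hey1* (530.1) and *Id1* (237).

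**Figure D1:**
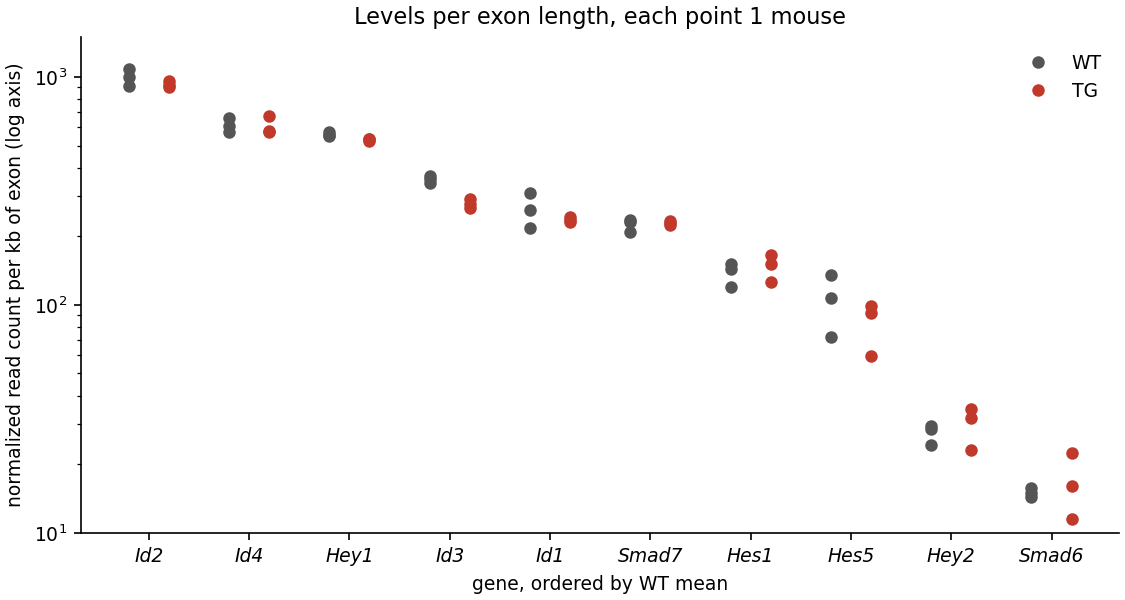
Normalized read count per kb of exon (log axis) of the 10 genes in each of 3 WT (grey) and 3 TG (red) mice, ordered by the WT mean. Levels run from *Id2*, with a WT mean of 995, to *Smad6*, with 15.0.

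*Id3* (ENSMUSG00000007872, chr4:136143497-136145755, plus strand), an inhibitor of E proteins and a classical BMP target, had 495, 524 and 476 normalized counts in TG replicates 1, 2 and 3 and 636, 612 and 659.7 in WT replicates 1, 2 and 3. Every TG mouse was below every WT mouse. The means were 498 ± 24.0 in TG and 636 ± 24.0 in WT mice (SD, n = 3), a log2 fold change of -0.35 with a standard error of 0.07, or -21.6%. This is the value by which the genes were selected. Leaving out TG replicate 2 gave -0.388 and leaving out TG replicate 3 gave -0.319, the ends of the range over the 6 libraries. With the summed endothelial markers as a covariate it was -0.354, and with the summed astrocyte markers -0.358.

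**Figure D2:**
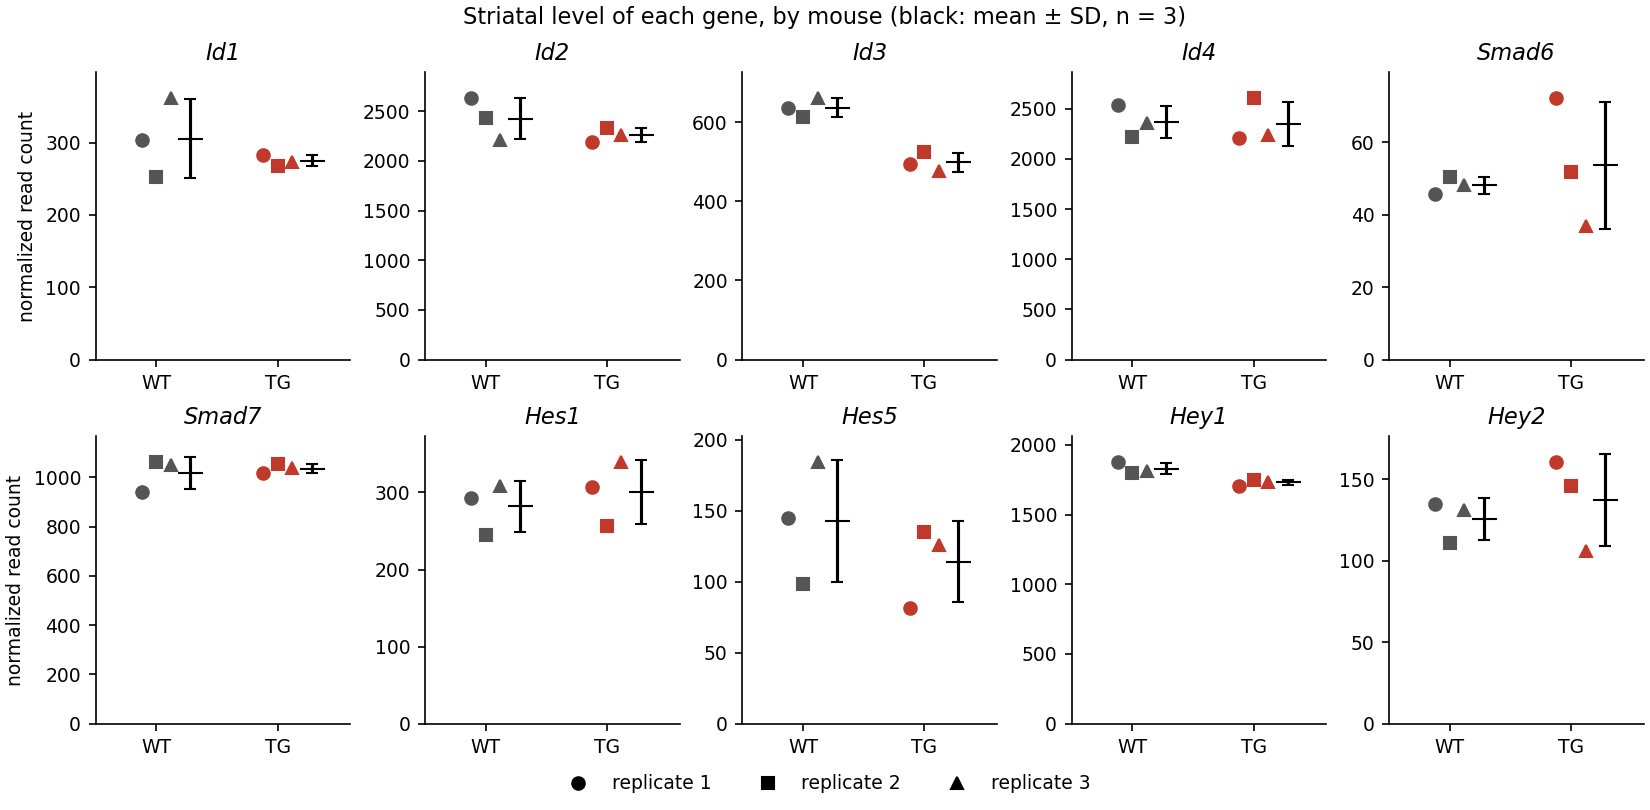
Normalized read count of each gene (axes start at 0) in 3 WT (grey) and 3 TG (red) mice, with the marker shape giving the replicate and black bars the mean ± SD. The groups are apart in *Id3*, 476 to 524 against 612 to 659.7, and narrowly in *Hey1*, and they overlap in the other 8 genes.

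The other Id genes were not called between the genotypes. *Id1* (ENSMUSG00000042745, chr2:152736251-152737410, plus strand), which responds to BMPs as *Id3* does, had 283, 268 and 273 normalized counts in TG replicates 1, 2 and 3 and 303, 252 and 361 in WT replicates 1, 2 and 3. The TG values were close to each other and inside the range of the WT values. The log2 fold change was -0.14 with a standard error of 0.12, a 95% interval of -24.7% to 9.55% (adjusted *P* = 0.971, limma), and it was -0.01 without WT replicate 3 and -0.27 without WT replicate 2.

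*Id2* (ENSMUSG00000020644, chr12:25093799-25097140, minus strand), which many neurons express, had 2191, 2336 and 2258 normalized counts in TG replicates 1, 2 and 3 and 2629, 2433 and 2214 in WT replicates 1, 2 and 3. WT replicate 3 lay among the TG mice and the other WT mice above them. Its log2 fold change was -0.1 with a standard error of 0.06, with an interval of -15.3% to 3.09% (adjusted *P* = 0.971, limma). *Id4* (ENSMUSG00000021379, chr13:48261228-48266026, plus strand), known from neural progenitors and astrocytes, had 2209, 2602 and 2238 in TG replicates 1, 2 and 3 and 2532, 2213 and 2353 in WT replicates 1, 2 and 3. TG replicate 2 was the highest of the 6 libraries and TG replicate 1 the lowest. Its log2 fold change was -0.01 with a standard error of 0.07, with an interval of -11.3% to 10.9% (adjusted *P* = 0.993, limma). Of the exon bases of *Id4*, 82 exon bases overlap *A330033J07Rik* on the opposite strand (mean 36.1) and 171 with *Gm49291*, which was not analysed here, and whether reads were counted by strand is not given in the sources used here.

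The inhibitory Smads did not differ beyond their spread. *Smad7* (ENSMUSG00000025880, 18:75367529-75395935, plus strand), which blocks BMP and TGF-beta receptors, had 1016, 1053 and 1038 normalized counts in TG replicates 1, 2 and 3 and 941, 1061 and 1049 in WT replicates 1, 2 and 3. All but WT replicate 1 were within a narrow band. On the log2 scale the fold change was 0.03 with a standard error of 0.06, and the interval was -7.29% to 12.1% (adjusted *P* = 0.985, limma).

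*Smad6* (ENSMUSG00000036867, chr9:63953076-64022059, minus strand), which acts mainly on BMP receptors, had 72.1, 51.7 and 37.0 normalized counts in TG replicates 1, 2 and 3 and 45.8, 50.5 and 48.1 in WT replicates 1, 2 and 3. The TG mice held both the highest and the lowest value. The log2 fold change was 0.1 with a standard error of 0.23 (interval -24.6% to 52.8%, adjusted *P* = 0.986, limma), and it was -0.133 without TG replicate 1, the library with the most choroid plexus markers. The part of that tissue in the *Smad6* value was not tested.

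*Hey1* (ENSMUSG00000040289, chr3:8663359-8667256, minus strand), a repressor that Notch activates, was the other gene whose groups did not overlap. It had 1708, 1748 and 1736 normalized counts in TG replicates 1, 2 and 3 and 1874, 1799 and 1813 in WT replicates 1, 2 and 3. The highest TG mouse was below the lowest WT mouse by less than the range of the WT mice. The means were 1731 ± 20.3 and 1829 ± 39.4 (SD, n = 3), a log2 fold change of -0.08 with a standard error of 0.05. The interval was -11.9% to 1.69%, and *Hey1* was not called (unadjusted *P* = 0.119, adjusted *P* = 0.971, limma). The exact permutation test gave a two-sided *P* of 0.1, the smallest that 3 against 3 mice allow. Among all genes tested, 5.05% had every TG value below every WT value and 5.06% every TG value above.

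*Hey2* (ENSMUSG00000019789, chr10:30832359-30842801, minus strand), a relative of *Hey1* known from the heart and arteries, had 160.5, 146 and 106 normalized counts in TG replicates 1, 2 and 3 and 135, 111 and 131 in WT replicates 1, 2 and 3. The highest and the lowest value were both in TG mice. On the log2 scale the fold change was 0.11 with a standard error of 0.16 (interval -15.7% to 38.8%, adjusted *P* = 0.977, limma). Like *Smad6*, *Hey2* was highest in TG replicate 1, and its log2 fold change without that library was -0.008.

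*Hes1* (ENSMUSG00000022528, chr16:30064384-30067796, plus strand), a repressor of proneural genes, had 307, 256 and 339 normalized counts in TG replicates 1, 2 and 3 and 293, 245 and 308 in WT replicates 1, 2 and 3. The groups overlapped over most of their range. Its log2 fold change was 0.09 with a standard error of 0.12, and the interval was -11.9% to 28.5% (adjusted *P* = 0.975, limma).

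*Hes5* (ENSMUSG00000048001, chr4:154960923-154962371, plus strand), the Hes gene most closely tied to Notch in neural progenitors, had 81.5, 135 and 126 normalized counts in TG replicates 1, 2 and 3 and 145, 98.2 and 184 in WT replicates 1, 2 and 3. TG replicate 1 was the lowest and WT replicate 3 the highest, with the other 4 mixed. The log2 fold change of -0.31 was near that of *Id3*, but its standard error was 0.24 and its interval -43.9% to 16.8% (adjusted *P* = 0.971, limma). It was -0.083 without TG replicate 1, -0.1 without WT replicate 3 and -0.548 without WT replicate 2. With the summed astrocyte markers as a covariate it was -0.514 (unadjusted *P* = 0.00904, adjusted *P* = 0.950, limma). *Hes5* overlaps *Gm20421* on the opposite strand by 433 exon bases, and the mean count of that gene was 3.0.

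Of the 10 genes, 6 were lower and 4 higher in TG mice. Besides *Id3*, 5 were lower and 4 higher, and 0 of these 9 were called by limma. At an unadjusted *P* under 0.05, 0 of the 9 passed by limma, and also 0 by DESeq2, edgeR and voom. Over all genes, 2.33% were lower and 1.98% higher at that level by limma. The only one of the 9 with groups apart was *Hey1*. The median log2 fold change was -0.046 over the 10 genes, -0.012 without *Id3* and -0.002 over all genes tested. Without TG replicate 1, 7 of the 10 were lower and 3 higher. Under single alternatives out of 18, each a further chance to pass, 3 of the 9 passed the unadjusted level by limma. All of them were lower and none was called after adjustment. These were *Hes5* with the astrocyte covariate (unadjusted *P* = 0.00904) and without WT replicate 2 (unadjusted *P* = 0.0331), *Id1* without WT replicate 2 (unadjusted *P* = 0.0322) and *Id2* without WT replicate 3 (unadjusted *P* = 0.0239). Shares of all genes at that level were 2.43% lower and 2.59% higher with the astrocyte covariate. Without WT replicate 2 they were 1.79% and 1.92%, and without WT replicate 3 they were 1.86% and 1.48%. Whether the difference in *Id3* exceeds that in the other genes was not tested.

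**Figure D3:**
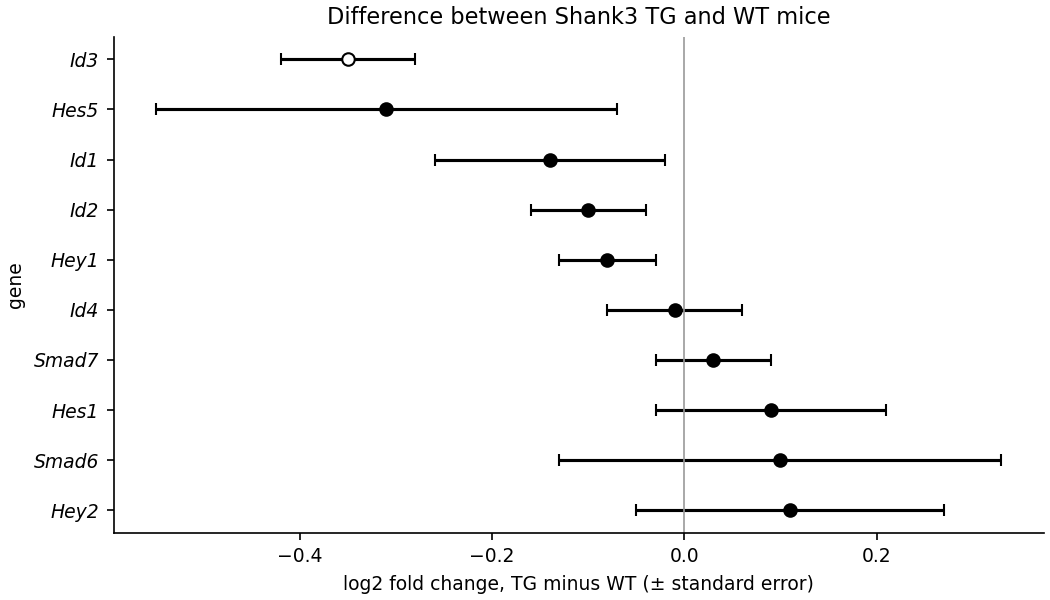
Log2 fold change (TG minus WT) of each gene with its standard error, from 3 TG and 3 WT mice. The open circle is *Id3*, at -0.35, which chose the group. *Hes5* lies near it with a far wider bar, and the other 8 lie between -0.14 and 0.11.

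The genes differed widely in how much they varied between mice of the same genotype. The SD of the log2 values within a genotype was 0.02 for *Hey1*, 0.06 for *Id3*, 0.07 for *Smad7*, 0.09 for *Id2* and 0.12 for *Id4*. It was 0.19 for *Id1* and *Hes1*, 0.24 for *Hey2*, 0.34 for *Smad6* and 0.42 for *Hes5*, against a median of 0.11 over all genes tested. The spread was also set against that of counting reads, as the Pearson statistic of the reads within genotypes over its degrees of freedom, for which counting error alone gives about 1. *Id3*, with 1.02, and *Hey1*, with 0.521, varied no more than counting does, and the median over all genes was 2.25. The spread of *Id3* comes from the same values that selected it, so it is a description. *Smad7* had 2.18, *Smad6* 3.18, *Hey2* 3.7, *Hes1* 4.73, *Id1* 5.28, *Id2* 9.61, *Hes5* 10.6 and *Id4* 15.0. For the same log2 SD this statistic grows with the number of reads. Libraries held 2212 to 2574 reads of *Id4* and 95 to 187 of *Hes5*. The log2 SDs of *Id4* (0.12) and *Id2* (0.09) were near the median of 0.11, and that of *Hes5* (0.42) was above it.

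Other genes were read from lists of BMP, TGF-beta and Notch components, with E proteins, Groucho co-repressors and proneural and related helix-loop-helix factors. Of these, 109 were tested. In TG mice 73 were lower and 36 higher, with a median log2 fold change of -0.048, while 50.8% of all genes were lower. Without TG replicate 1 they were 70 and 39. None was called by limma or DESeq2 after adjustment. At an unadjusted *P* under 0.05 by limma, 9 were lower (8.26%) and 2 higher (1.83%), beside the 2.33% and 1.98% of all genes. The groups did not overlap for 10 lower genes (9.17%) and 2 higher ones (1.83%), beside 5.05% and 5.06%. Genes of 1 pathway share their source mice, so these shares are a description. The count of 9 lower and 2 higher became 17 and 3 without TG replicate 1, where all genes gave 4.55% and 2.98%, and 4 and 1 without TG replicate 3, where all genes gave 1.34% and 1.52%. It was 4 and 2 by DESeq2 (all genes 1.30% and 1.15%), 6 and 1 without WT replicate 1 (2.22% and 1.78%), and 6 and 1 with the summed endothelial markers as a covariate (2.12% and 1.72%). Of the lower genes described below, *Acvrl1*, *Jag1*, *Notch1* and *Lfng* stayed under 0.05 by DESeq2. *Bmp6*, *Acvr2b*, *Psen2* and *Tcf3* did not (unadjusted *P* = 0.0866, 0.0742, 0.118 and 0.0526, DESeq2).

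Among the BMP ligands, 9 were tested, and *Bmp6* was the only one at an unadjusted *P* under 0.05. It had 225, 205 and 187 normalized counts in TG replicates 1, 2 and 3 and 233, 269 and 229.7 in WT replicates 1, 2 and 3, a log2 fold change of -0.25 with a standard error of 0.11 (unadjusted *P* = 0.0427, adjusted *P* = 0.971, limma). The most abundant per kb, *Gdf11* (0.01) and *Bmp3* (0.20), had log2 fold changes at and above 0. Of 10 BMP receptors and co-receptors, 5 were lower and 5 higher. *Acvrl1*, the type I receptor of endothelial cells, had a log2 fold change of -0.21 with a standard error of 0.09 (unadjusted *P* = 0.0435, limma), and the type II receptor *Acvr2b* -0.28 with 0.12 (unadjusted *P* = 0.0437, limma), both with an adjusted *P* of 0.971. The abundant *Bmpr2* and *Bmpr1a* had 0.07 and -0.03. The list of 6 receptor and common Smads held *Smad1*, *Smad5*, *Smad9* and *Smad4*, named above for BMPs, and also *Smad2* and *Smad3*. The median log2 fold change of the 6 was -0.02, with *Smad1* at -0.04, *Smad3* at -0.07 and *Smad4* at -0.04. Of the 6, 0 were at an unadjusted *P* under 0.05.

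Of 15 BMP antagonists and brakes, 14 were lower and 1 was higher. The 14 lower genes had 0 at an unadjusted *P* under 0.05, among them *Fst* at -0.25, *Ski* at -0.07 and *Smurf1* at -0.06. Of 10 TGF-beta and activin genes, 8 were lower and 2 higher with 0 at that level, with *Inhbb* at -0.21, *Inhba* at -0.17, *Acvr1c* at -0.08 and *Acvr1b* at 0.02.

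The smallest *P* values of the lists were in the Notch pathway. *Notch1*, a receptor, had 1105, 1033 and 957 normalized counts in TG replicates 1, 2 and 3 and 1215, 1209 and 1217 in WT replicates 1, 2 and 3. *Jag1*, a ligand, had 264, 257 and 268 in the TG and 367, 328 and 308 in the WT replicates in the same order. *Lfng*, which adds sugars to Notch and changes its choice of ligand, had 414, 430.5 and 416 in the TG and 498, 536 and 465 in the WT replicates. Every TG mouse was below every WT mouse in all 3 genes, as in 5.05% of all genes tested. These 3 were named for their small *P* values, so this is a description. Their log2 fold changes were -0.24 with a standard error of 0.06 for *Notch1* (unadjusted *P* = 0.00305, limma), -0.34 with 0.09 for *Jag1* (unadjusted *P* = 0.00320, limma) and -0.25 with 0.08 for *Lfng* (unadjusted *P* = 0.00788, limma). The adjusted *P* over all genes was 0.971 for each, so none was called. *Psen2*, a part of the protease that cleaves Notch, was at -0.17 (unadjusted *P* = 0.0384, limma), and *Mib1*, which activates the ligands, at 0.11 (unadjusted *P* = 0.0497, limma). The other receptors *Notch2* and *Notch3* were at -0.07 each and *Notch4* at 0.04, and the ligands *Jag2*, *Dlk2* and *Dner* at -0.09, -0.07 and 0.05. *Mib1* and *Notch4* are named here after their values were seen.

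Of 20 genes of Notch processing and the nuclear complex, 11 were higher and 9 lower, with a median of 0.007 and with the abundant *Rfng* at 0.01 and *Mib2* at -0.07. Of 10 further BMP or Notch targets tested, 7 were lower and 3 higher, with 0 at an unadjusted *P* under 0.05. These held *Bhlhe40* at 0.11, *Dtx1* at -0.05 and *Atoh8* at -0.21. Among the partners, 5 of 8 E proteins and Groucho co-repressors were lower. *Tcf3*, an E protein that Id proteins bind, had 1018, 946 and 966 normalized counts in TG replicates 1, 2 and 3 and 1102, 1088 and 1065 in WT replicates 1, 2 and 3, a log2 fold change of -0.15 with a standard error of 0.05 (unadjusted *P* = 0.0189, adjusted *P* = 0.971, limma). *Tle2* was at -0.16 and *Tle4* at 0.03. Of 9 proneural and related helix-loop-helix factors tested, 6 were lower and 3 higher. The abundant *Olig1* was at -0.07 and *Neurod6* at 0.19.

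**Figure D4:**
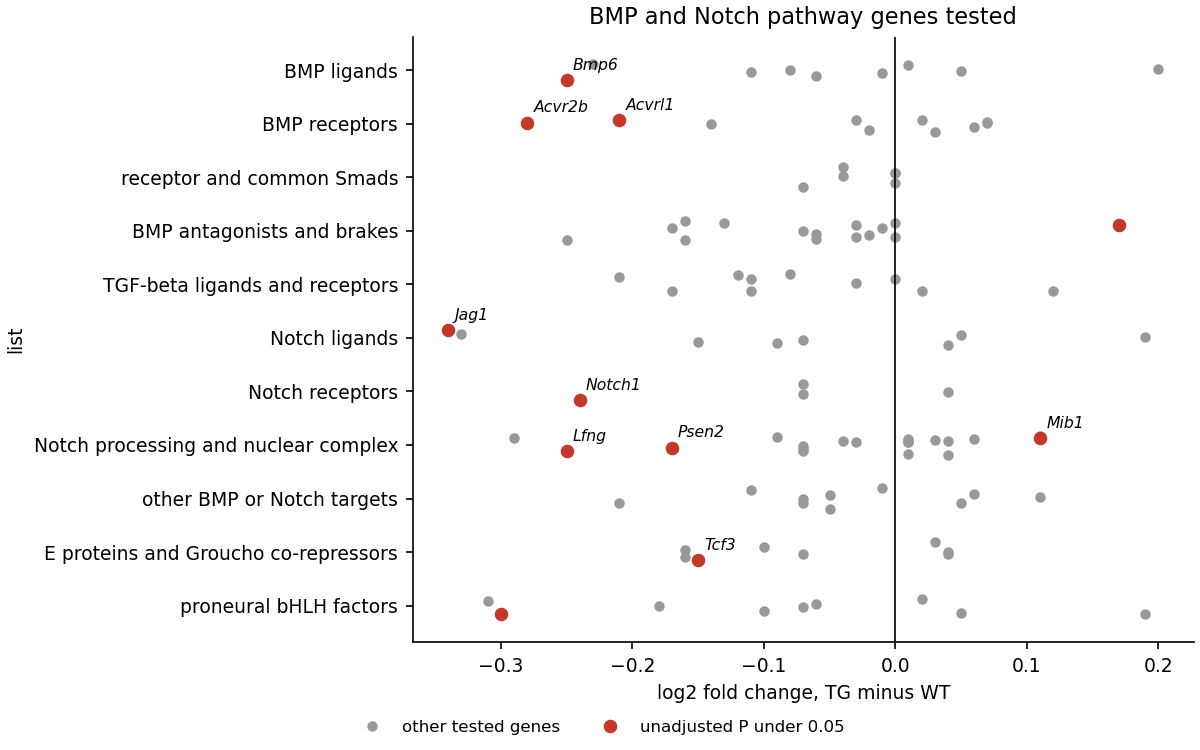
Log2 fold change (TG minus WT) of the 109 tested genes of the BMP, TGF-beta, Notch and partner lists, 1 row per list, 1 point per gene. Red points have an unadjusted *P* under 0.05 (limma), 9 to the left of 0 and 2 to the right, with *Jag1* farthest to the left at -0.34, and none was called after adjustment. Names are given for the genes described in the text.

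Several cell types express these genes, so their markers were summed per library. Endothelial markers gave 16138 to 16732 normalized counts in TG and 15002 to 17234 in WT mice, with 11 of 15 lower and 1 of the higher ones at an unadjusted *P* under 0.05 by limma. Mural cell markers gave 8260.1 to 8435 and 8177 to 9421, with 8 of 10 lower and 1 of these at that level. Astrocyte markers gave 168699 to 178009 and 171216 to 179628, with 11 of 15 lower and 3 of these at that level. The sums of these 3 cell types overlapped between the genotypes, for mural cells through WT replicate 2 alone. Microglial markers gave 12609.8 to 13596 in TG and 13702 to 14358 in WT mice, with 10 of 10 lower, 4 of these at that level, and the sums apart, and their part in the *Id3* value was not tested. Over all genes, 2.33% were lower and 1.98% higher at that level.

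Oligodendrocyte markers (7 of 10 lower), spiny projection neuron markers (11 of 12 lower, 135384 to 188275 against 163616 to 188119.6) and cortical excitatory neuron markers (6 of 10 higher) also overlapped in their sums. So did ependymal markers (8 of 10 lower, 1 of them at an unadjusted *P* under 0.05 by limma), meningeal fibroblast markers (10 of 10 lower, 2961 to 4434 against 3546 to 4391) and those of neural progenitors and neuroblasts (10 of 10 lower, 5588 to 6775 against 5425 to 8106). WT replicate 2 stood apart in progenitor and neuroblast markers, at 8106 against 5425 to 6775 in the other libraries. It also did so in ependymal markers, at 1452 against 843 to 1111. Choroid plexus markers were higher for 11 of 11 tested, 3 of them at an unadjusted *P* under 0.05 by limma, and summed to 388 in TG replicate 3, within the WT range. No marker of any list was at 0 in all libraries. Their part in the values of the 10 genes was not tested, apart from the covariates given.

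**Figure D5:**
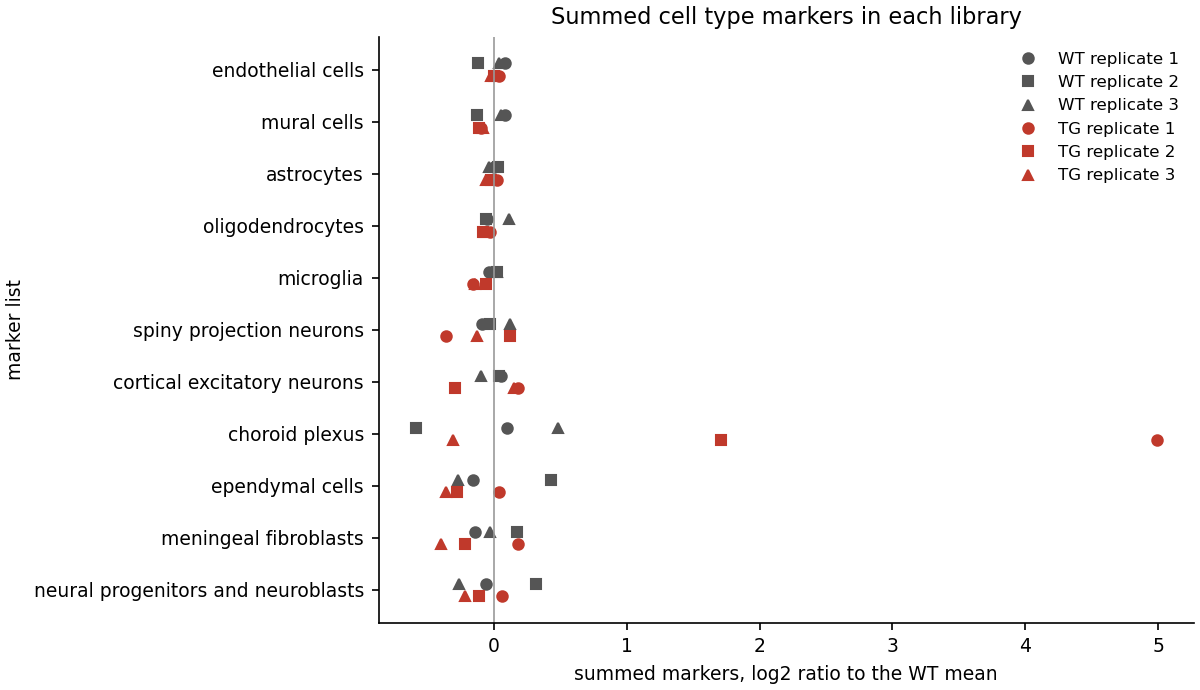
Sum of each cell type's markers in each library as a log2 ratio to the WT mean, with TG in red and WT in grey. TG replicate 1 stands far to the right in choroid plexus markers (15349.6 normalized counts), and the TG and WT libraries overlap in endothelial, mural and astrocyte markers.

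The genes most like *Id3* across the 6 libraries were sought among 12831 genes with a mean of at least 100, by the Pearson correlation of the log2 values. They were *Inpp5e* (r = 0.9919), *Idnk* (0.9869), *Grin2c* (0.9862), *Zc3h18* (0.9858) and *Fuom* (0.985), with log2 fold changes of -0.12, -0.2, -0.19, -0.12 and -0.14. The libraries share the genotype split by which *Id3* was selected. After the mean of each genotype was subtracted they were *Dnajc4* (0.9971), *Srsf2* (0.9959), *Zfp444* (0.9911), *Gm37607* (0.9902) and *Ccdc187* (0.9867). No gene was in both lists, and none was of the Id, Smad, Hes or Hey families. *Smad6*, with a mean of 50.9, was below the limit of 100 and was not compared. Of the rest of the group, *Hey1* was the closest to *Id3* across all libraries, at 0.89, followed by *Id1* and *Hes5* at 0.54 each, *Id2* at 0.48 and *Id4* at 0.26. *Hey2* (-0.08), *Smad7* (-0.22) and *Hes1* (-0.32) were below 0. With the genotype means subtracted the order was another, with *Id4* at 0.73, *Hey2* at 0.68, *Hes5* at 0.59, *Id1* at 0.56, *Hey1* at 0.26, *Smad7* at 0.03, *Id2* at -0.14 and *Hes1* at -0.21. These values over 6 libraries are descriptions.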

How the data were processed

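Striatal RNA of 3 WT and 3 *Shank3* TG mice was prepared with a TruSeq RNA kit v2 and sequenced in pairs. Per the study's methods and the labels, the authors trimmed reads (Trimmomatic 0.35), mapped them to GRCm38 (TopHat2 2.1.0), obtained gene counts (HTSeq) and scaled each library by its DESeq2 size factor. The deposited signal is this normalized read count. The strand setting and annotation release are not given in the sources used here. Every value column was assigned to a sample.

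Reads were recovered by taking the smallest nonzero value of a library as 1 read, and 100% of values were then whole (tolerance 0.01). Genotypes were compared with limma 3.58.1 (eBayes with trend) on log2(value + 1) in the 17605 genes whose mean reached 10, and *P* values were adjusted by Benjamini and Hochberg (threshold 0.05). Fold changes are on that scale, and DESeq2, which the study used, was an alternative since the values are not counts. The study also corrected its *P* values by an estimated null distribution before adjustment. That step was not run here, so the DESeq2 calls given here are not those of the study. Alternatives were DESeq2 1.42.0, edgeR 4.0.16 and voom on recovered reads, pseudocounts of 0.5 and 5, no filter, a mean of at least 50, TMM scaling, library totals, leaving out single libraries, blocking on the replicate number, and endothelial or astrocyte markers as a covariate. The fits were tested on simulated data (R 4.3.3).

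Exon lengths are from GENCODE M21. Named were the 10 genes, up to 2 genes of each pathway list with the smallest *P* value and the 2 most abundant per kb, the 2 most abundant markers of each cell type where described, the 5 genes most like *Id3* on each scale and *Shank3*, besides genes marked in the text. The values of 2 genes that this rule names are not reported here. The genes and lists were chosen with earlier results of these data known.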

Additional observations from a re-analysis of the deposited data

How the results depend on the processing

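None of the 9 genes besides *Id3* was called under any of the 18 alternatives. The number of all genes called was 1, against 7 by DESeq2, 5 without a filter and 1 to 2 with a library left out. The median log2 fold change of the 10 genes was -0.087 to -0.012 with a library left out and -0.054 to -0.04 under the other alternatives. That of *Id3* was -0.388 to -0.319 and -0.358 to -0.346. The sign turned in 5 genes when a library was left out. *Id4* had 0.031 without TG replicate 1, 0.021 without TG replicate 3 and 0.038 without WT replicate 1, over a range of -0.088 to 0.038. *Smad6* had -0.133 (to 0.338) and *Hey2* -0.008 (to 0.288) without TG replicate 1. *Smad7* had -0.027 (to 0.06) without WT replicate 1, and *Hes1* -0.001 without TG replicate 3 and -0.008 (to 0.2) without WT replicate 2. Each of these had fewer samples. The 11 pathway genes at an unadjusted *P* under 0.05 became 6 by DESeq2, 7 with the endothelial covariate and 5 to 20 with a library left out. The cause was not tested.

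Whether the replicate numbers of the labels pair the mice is not given in the sources used here. The deviations of same-numbered TG and WT mice from their group means correlated by 0.047, 0.016 and 0.093. Mice of different numbers were not compared, so these values cannot decide it. With a replicate block the 10 genes had the same fold changes, a median of -0.046, 0 of the 9 were called, and 13 pathway genes were at an unadjusted *P* under 0.05, where all genes gave 3.21% lower and 2.60% higher, up from 2.33% and 1.98%. With 3 mice per genotype, differences such as that of *Hes5*, with an interval of -43.9% to 16.8%, could not be resolved.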
